A study of Mus musculus with 6 samples.

Results

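Glucose enters a cell through membrane carriers, is trapped by a hexokinase and is then split to pyruvate by the enzymes of glycolysis. Pyruvate is reduced to lactate or passed to the mitochondria, the pentose phosphate branch draws on glucose 6-phosphate for reducing power and ribose, and gluconeogenesis runs much of the path in reverse from its own committed enzymes. In the uterus, glucose is taken up by epithelium and stroma and can be held as glycogen in the epithelium. A set of 49 genes of this pathway, picked by name, was followed across the arrays by every probe set whose platform annotation gave exactly 1 gene symbol equal to a listed gene. Of the 49 genes, 35 had such a probe set and 14 did not, and the 35 carried 66 of the 41420 probe sets. Each gene was represented by its brightest probe set among 16813 genes, and all 66 probe sets were examined as well.

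The samples were whole uteri of intact female mice aged 2 weeks. Each genotype, Arid1a f/f and Arid1a d/d in the labels, has 3 arrays, where f usually denotes a floxed and d a deleted allele of Arid1a, which encodes a DNA-binding part of SWI/SNF, a complex that remodels chromatin. The labels name no Cre driver, strain or exon, do not say whether each array came from its own animal, and describe no treatment, so the spread behind each p-value is that among these samples and may be technical. The values are the deposited RMA intensities taken to log2, and each difference is d/d minus f/f on that scale. Its p comes from limma with Benjamini-Hochberg adjustment over all 16813 genes, or over all 41420 probe sets where stated, and a gene was said to rise or fall only at an adjusted p under 0.05. The 14 genes without a probe set of 1 symbol, not analysed here, were Slc2a4, Gpi1, Pfkm, Pfkfb1, Gapdh, Pgam2, Eno1, Eno2, Eno3, Pkm, Pdk4, Pcx, G6pdx and Pygl.

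Array d/d 1 stood apart from the other d/d arrays. On the first principal component of all probe sets it lay at -11.9, among the f/f arrays at -29.4 to -6.95, far from 37.2 for d/d 2 and 28.8 for d/d 3, so values without d/d 1 are given beside the results it moves most. Without it the same 3 glucose genes passed, and 10 of 35 moved by more than 0.1 in log2 difference; of those not described with it further on, Aldoc went from -0.18 to 0.04, Pgam1 from 0.05 to 0.21, Ldha from 0.07 to 0.27 and Taldo1 from 0.04 to 0.17. Arid1a itself fell, from 7.54, 7.58 and 7.71 in the f/f arrays to 6.98, 7.06 and 7.04 in the d/d arrays (log2 difference -0.58 ± 0.09 SE; limma adjusted p = 0.0260). Of 16813 genes, 192 passed the threshold, or 1.14%, with 0.630% higher and 0.512% lower in d/d uteri.

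Of the 35 measured glucose genes, 3 fell, 0 rose and 32 did not pass in limma, and 6 had an unadjusted p under 0.05, beside 12.2% of all genes. The 3 that fell act at separate points of the pathway: Slc2a3 encodes GLUT3, a high-affinity glucose carrier, Hk2 encodes hexokinase 2, the inducible enzyme that phosphorylates incoming glucose, and Pck1 encodes the cytosolic phosphoenolpyruvate carboxykinase of gluconeogenesis and of glycerol synthesis in fat. Over the 35 genes the median log2 difference was -0.04, beside -0.01 over all genes, and 20 lay below 0 and 15 above it, where 46.6% of all genes lay. Groups that did not overlap were found for 6 of the 35, beside 16.5% of all genes, so this share lay near that of the whole array. The members were chosen with results of these data known, and nothing is read from their counts against the rest of the array.

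**Figure D1:**
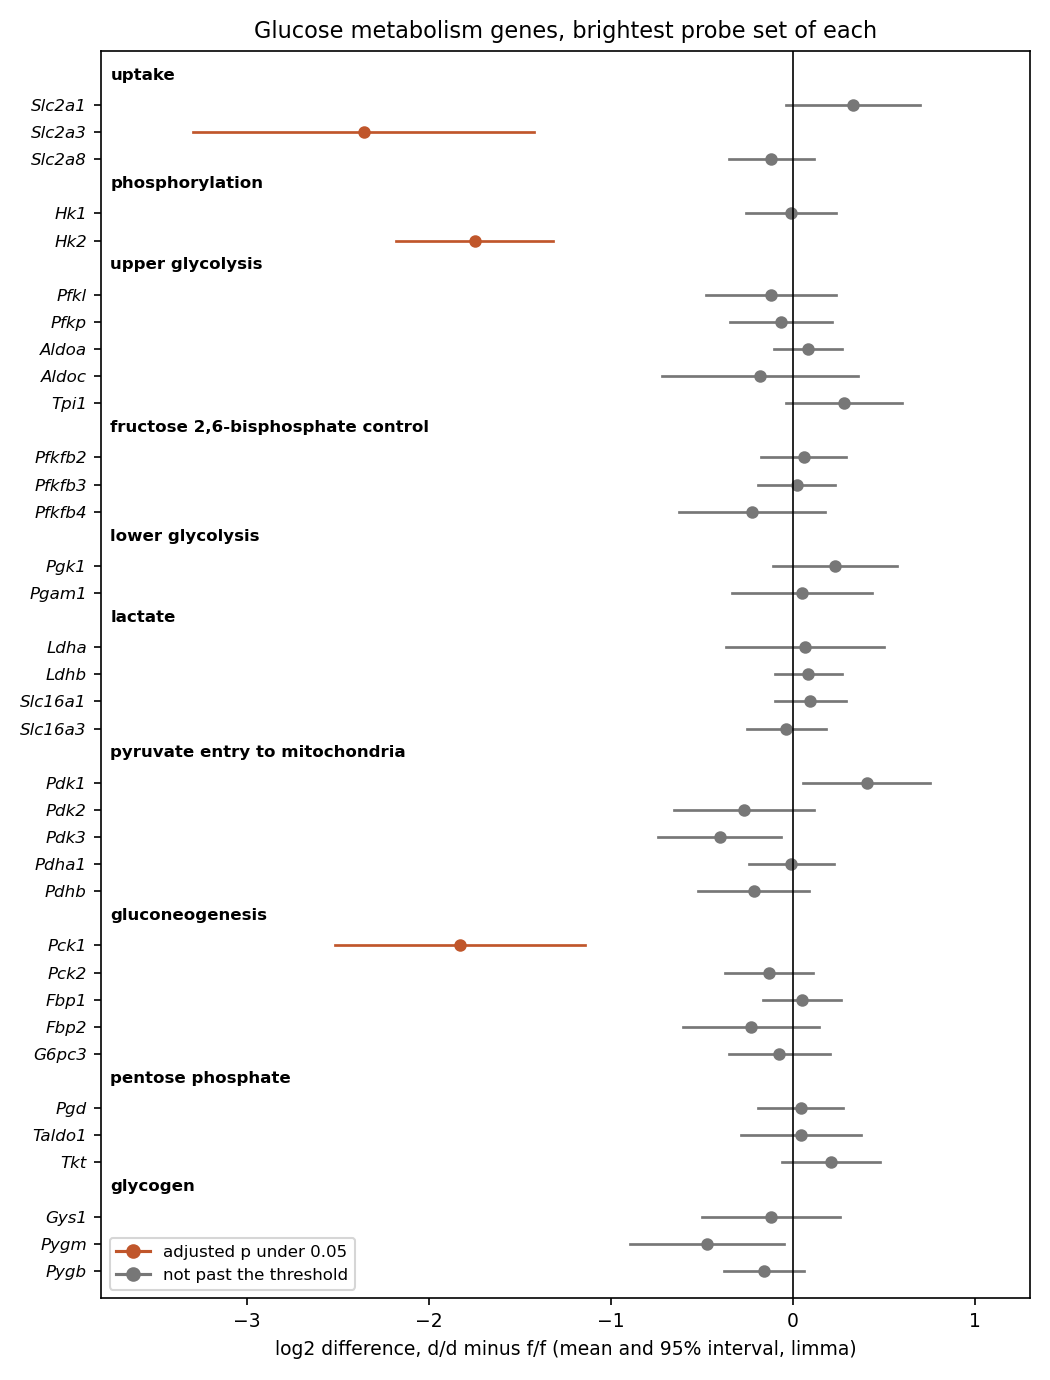
Log2 difference, d/d minus f/f, on the x axis for the 35 measured genes, grouped by role on the y axis. Points are limma estimates from 3 arrays against 3, lines are 95% intervals, and the 3 coloured genes (Slc2a3 at -2.36, Hk2 at -1.75 and Pck1 at -1.83) have adjusted p under 0.05 while all others lie between -0.47 and 0.40.

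Promoter sequence was at hand for Hk2 and Pck1 among the genes that fell, and is shown because both fell. None was at hand for Slc2a3, and the motifs were chosen after the data were seen. The stretches run from 250 bases before to 50 after the RefSeq start (GRCm38.p6; Hk2 at chr6:82774405-82774704 on the minus strand, Pck1 at chr2:173152823-173153122 on the plus strand), and capitals mark CGTCA, the half-site bound by CREB-family factors.
Hk2: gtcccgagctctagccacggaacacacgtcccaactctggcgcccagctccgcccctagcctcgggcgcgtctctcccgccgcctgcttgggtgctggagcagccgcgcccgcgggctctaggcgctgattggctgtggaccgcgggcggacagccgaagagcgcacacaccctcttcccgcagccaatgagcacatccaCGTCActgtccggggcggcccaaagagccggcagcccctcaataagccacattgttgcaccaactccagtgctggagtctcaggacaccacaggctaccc
Pck1: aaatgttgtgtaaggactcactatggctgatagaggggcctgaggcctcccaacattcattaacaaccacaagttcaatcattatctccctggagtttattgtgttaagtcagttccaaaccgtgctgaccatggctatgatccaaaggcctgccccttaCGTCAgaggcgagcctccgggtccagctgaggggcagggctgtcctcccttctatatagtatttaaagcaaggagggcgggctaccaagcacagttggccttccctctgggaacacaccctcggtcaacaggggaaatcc

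Both promoters hold 1 CGTCA on the printed strand, starting 50 bases before the start site in Hk2 and 90 before it in Pck1. Counted on both strands, 20.8% of all 32851 promoters of this length hold it. The core of the hypoxia response element, ACGTG, occurs 2 times in the Hk2 stretch, both on the other strand and the nearer one overlapping the CGTCA, 0 times in that of Pck1, and in 19.6% of all promoters. CCAAT occurs 2 times in the Hk2 stretch and 0 times in that of Pck1 (37.4% of all promoters), while TATAAA, the E-box CACGTG and the FOXA motif TGTTTAC occur in neither (13.6%, 7.15% and 3.65% of all promoters). Over the 34 measured glucose genes in the promoter table, CGTCA was found in at least 1 promoter of 13 genes (38.2%), beside 23% of all 27025 genes. ACGTG was found in 19 (55.9% beside 21.8%), the E-box, which contains ACGTG, in 7 (20.6% beside 8.09%), CCAAT in 17 (50% beside 41.1%), and TATAAA and TGTTTAC in 1 each (2.94%, beside 15.7% and 4.05%). Letters in a promoter are a description and say nothing of what binds there in the uterus.

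Among the carriers, Slc2a3 had the largest difference of all 35 genes. Its brightest probe set, 1437052_s_at, read 9.06, 8.52 and 7.73 on f/f arrays 1, 2 and 3 against 6.83, 5.51 and 5.88 on d/d arrays 1, 2 and 3, the order used throughout. Even the highest d/d array was under the lowest f/f array, and both groups spread widely. The mean fell from 8.44 ± 0.67 to 6.08 ± 0.68 (SD, n = 3), which is 5.13-fold (log2 difference -2.36 ± 0.40 SE; limma adjusted p = 0.0446 over genes and 0.0511 over probe sets, which is past the threshold only over genes). A second bright probe set, 1455898_x_at, whose suffix marks possible cross-hybridisation, read 7.65, 7.19 and 6.39 on f/f arrays against 5.49, 4.15 and 4.28 on d/d arrays. It too had groups that did not overlap, at a log2 difference of -2.44 ± 0.40 (SE; limma adjusted p = 0.0503 over probe sets, which did not pass). Over all probe sets 0.524% passed, and 2 of the 8 of Slc2a3, Hk2 and Pck1 did, 1 each of Hk2 and Pck1. The remaining probe sets of Slc2a3, 1421924_at and 1427770_a_at, stayed between 1.47 and 1.79 in every array, below the median of all values, 2.69, where RMA leaves little room to see a change (a gene is called dim where both its group means lie under it), and their log2 differences were -0.06 and 0.03. The Slc2a3 call was held in 1 of 6 fits with 1 array left out, that without d/d 1 (-2.74; adjusted p = 0.00454). It was lost in the other fits, with adjusted p up to 0.186, and at -1.21 with the mean of the probe sets (adjusted p = 0.0713), at -2.36 with an intensity trend and robust variance (0.101) and at -2.19 with 10 added to each intensity (0.123).

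The other measured carriers moved little. Slc2a1, which encodes GLUT1, the broadly expressed basal glucose carrier, read 7.15, 6.92 and 6.76 on f/f arrays against 7.40, 7.46 and 6.96 on d/d arrays. The groups overlapped through f/f 1 and d/d 3, and the log2 difference was 0.33 ± 0.16 (SE; 95% interval -0.04 to 0.70; limma adjusted p = 0.477). Its 2 dimmer probe sets stood at 0.39 and 0.19 and did not pass over probe sets. Slc2a8, an intracellular hexose carrier, had a log2 difference of -0.12 (95% interval -0.35 to 0.11).

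Hk2 has 1 probe set, and its groups were far apart. It read 5.07, 4.48 and 5.15 on f/f arrays against 3.19, 3.31 and 2.95 on d/d arrays. The lowest f/f array lay more than 1 unit above the highest d/d array, and d/d 1 lay with d/d 2 and d/d 3. The mean fell from 4.90 ± 0.36 to 3.15 ± 0.18 (SD, n = 3), which is 3.36-fold (log2 difference -1.75 ± 0.19 SE; limma adjusted p = 0.00991 over genes and 0.00914 over probe sets). Leaving out each array in turn kept the Hk2 call 4 of 6 times, with the adjusted p at 0.0517 without f/f 3 and 0.0522 without d/d 3. With 10 added to each intensity, which compresses dim values, the difference was -1.08 with adjusted p = 0.0548. Hk1, the constitutive hexokinase of most tissues, read 6.83, 6.67 and 6.94 on f/f arrays against 6.88, 6.66 and 6.85 on d/d arrays. Its groups overlapped fully, at a log2 difference of -0.01 (95% interval -0.26 to 0.23; limma adjusted p = 0.979).

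**Figure D2:**
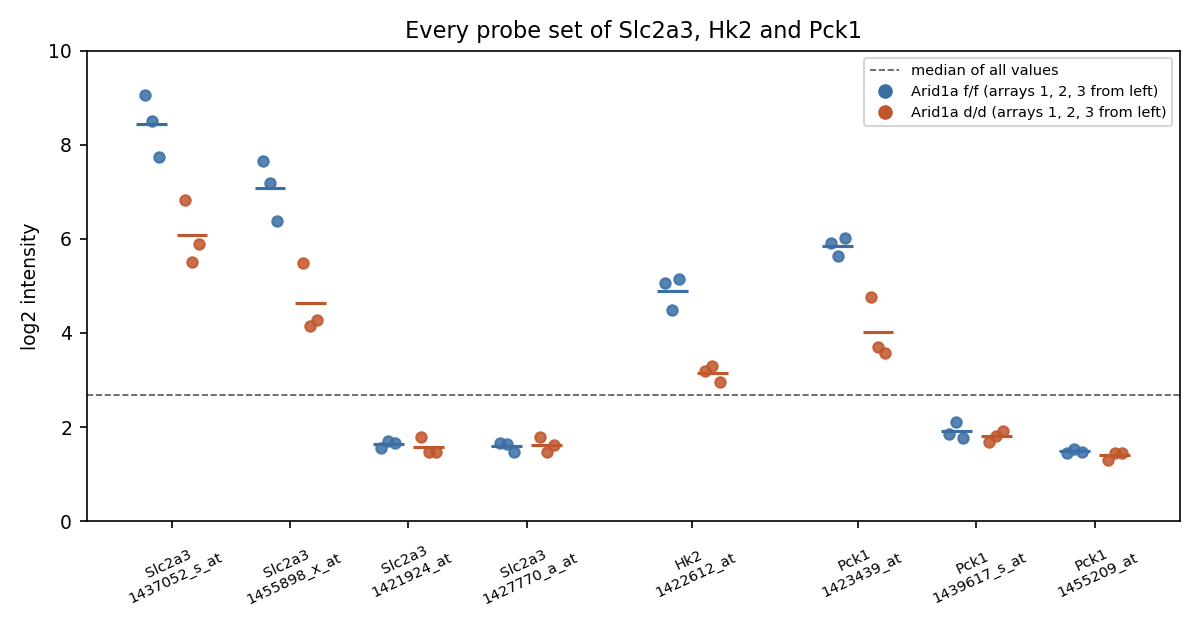
Log2 intensity on the y axis of each array (points, in array order from the left within a genotype) for all 8 probe sets of Slc2a3, Hk2 and Pck1 on the x axis, with the group mean as a bar and the median of all values, 2.69, dashed. The 4 probe sets above the dashed line have every d/d array under every f/f array, and the 4 below it overlap between genotypes.

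Pck1 showed the third fall. Its probe set 1423439_at read 5.90, 5.63 and 6.02 on f/f arrays against 4.77, 3.71 and 3.58 on d/d arrays. The groups did not overlap, and d/d 1 lay between the f/f arrays and the other d/d arrays. The mean fell from 5.85 ± 0.20 to 4.02 ± 0.65 (SD, n = 3), which is 3.55-fold (log2 difference -1.83 ± 0.30 SE; limma adjusted p = 0.0389 over genes and 0.0418 over probe sets). Its dimmer probe sets, 1439617_s_at and 1455209_at, lay below 2.69 in every array, at log2 differences of -0.11 and -0.09. Leaving out each array in turn kept the Pck1 call 1 of 6 times, without d/d 1 (-2.20; adjusted p = 0.000647). In the other 5 fits the adjusted p reached 0.166, and with 10 added to each intensity it was 0.0884 at -1.35. Averaging its 3 probe sets left Pck1 past the threshold at a smaller difference (-0.67; adjusted p = 0.0194).

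The rest of gluconeogenesis did not pass. Pck2, the mitochondrial counterpart of Pck1, read 6.77, 6.80 and 6.87 on f/f arrays against 6.52, 6.69 and 6.85 on d/d arrays, at a log2 difference of -0.13 (95% interval -0.37 to 0.11). Fbp2, the muscle-type fructose bisphosphatase, read 2.43, 2.93 and 2.45 on f/f arrays against 2.27, 2.25 and 2.58 on d/d arrays, with overlapping groups at -0.23. Fbp1, the liver-type enzyme, was dim too, at 0.05. G6pc3, the ubiquitous glucose 6-phosphatase, stood at -0.08 (95% interval -0.35 to 0.20).

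In 3 pairs of paralogues that serve the same step, the gene that fell was set against its partner within each array. The log2 ratio of Slc2a3 to Slc2a1 was lower in d/d uteri, with a difference of -2.69. For Hk2 to Hk1 the difference was -1.74, and for Pck1 to Pck2 it was -1.70. With each gene's probe sets averaged, these became -1.51, -1.77 and -0.56, and with 10 added to each intensity -2.50, -1.07 and -1.23. In each pair all 3 d/d ratios lay below all 3 f/f ratios. That follows largely from the gene-wise values, since 1 gene of each pair had fallen without overlap and its partner moved little. The exact 2-sided permutation test gave p = 0.1, the smallest that 3 arrays against 3 allow, and an adjusted p of 0.175 over the 7 measurable pairs, so the design could not take any pair past 0.05. The ratio of Slc16a3 to Slc16a1, 2 lactate carriers that were both dim, also did not overlap (-0.13), while Pfkp to Pfkl (0.05), Aldoc to Aldoa (-0.26) and Ldhb to Ldha (0.02) overlapped, with exact permutation p of 0.7, 0.6 and 1. Of the 9 pairs chosen, Eno2 to Eno1 and Pygl to Pygb were not analysed here.

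**Figure D3:**
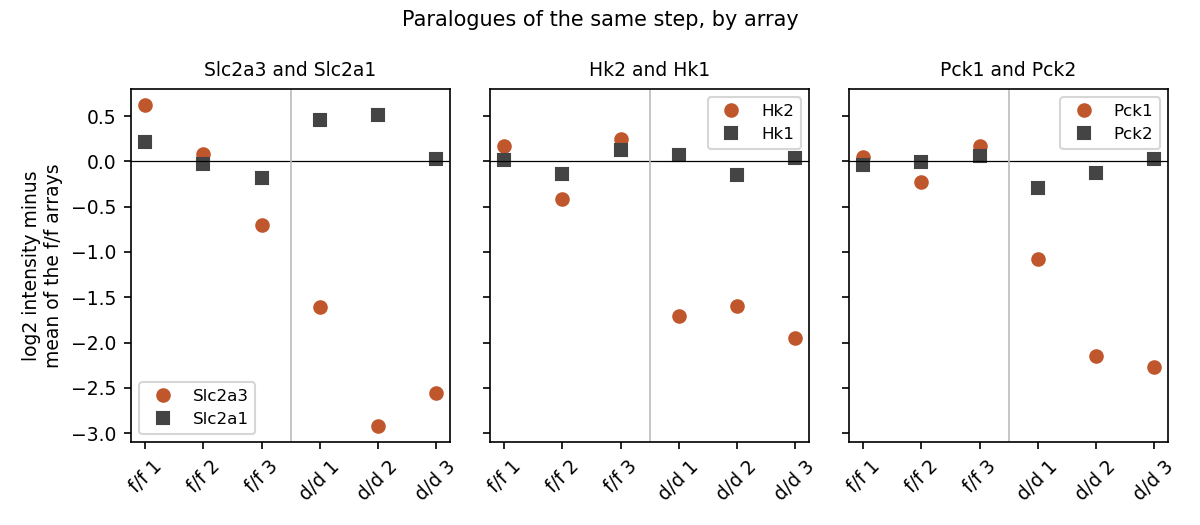
Log2 intensity of each array minus the gene's mean over the f/f arrays (y axis) by array (x axis), for 3 pairs of paralogues. Circles (Slc2a3, Hk2, Pck1) drop to between -2.92 and -1.08 in d/d arrays, while squares (Slc2a1, Hk1, Pck2) stay between -0.30 and 0.51.

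None of the 5 measured genes of upper glycolysis passed. Tpi1, the triose phosphate isomerase, read 8.84, 8.98 and 9.25 on f/f arrays against 9.10, 9.42 and 9.38 on d/d arrays. It overlapped through f/f 3 and d/d 1, with a log2 difference of 0.28 (95% interval -0.04 to 0.60; limma adjusted p = 0.493; 0.38 without d/d 1), and its dimmer probe set stood at 0.36. Aldoa, the main aldolase outside liver, differed by 0.08, with an interval of -0.10 to 0.27, and its 4 probe sets lay between 0.07 and 0.13. Aldoc, another aldolase, stood at -0.18, and the phosphofructokinase subunits Pfkl and Pfkp at -0.12 and -0.07, of which Pfkp was dim. Of the bifunctional enzymes that set the level of the phosphofructokinase activator, Pfkfb4 read 4.98, 4.55 and 4.73 on f/f arrays against 4.83, 4.21 and 4.54 on d/d arrays. Its groups overlapped at -0.22, a value that ranged from -0.37 without d/d 1 to -0.07 without d/d 2. Pfkfb2 and Pfkfb3 stood at 0.06 and 0.02, the latter dim.

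The measured genes of lower glycolysis and of lactate metabolism did not pass either. Pgk1, the phosphoglycerate kinase, read 8.19, 8.20 and 8.65 on f/f arrays against 8.43, 8.72 and 8.58 on d/d arrays, with overlapping groups at 0.23 (95% interval -0.11 to 0.57). Its other probe set gave 0.24. Pgam1, the phosphoglycerate mutase, differed by 0.05 (95% interval -0.33 to 0.43). Ldha and Ldhb, the subunits of lactate dehydrogenase, differed by 0.07 and 0.08, with 95% intervals of -0.37 to 0.50 and -0.10 to 0.27, so Ldhb was the more tightly bounded. The lactate carriers Slc16a1 and Slc16a3 stood at 0.09 and -0.04, both dim.

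Pyruvate dehydrogenase, the gate to the mitochondria, is switched off by the kinases Pdk1 to Pdk4. Here Pdk1 and Pdk3 lay in opposite directions without passing. Pdk1 read 6.03, 5.68 and 6.19 on f/f arrays against 6.26, 6.57 and 6.27 on d/d arrays, every d/d array above every f/f array by a narrow margin (0.40 ± 0.15 SE; limma adjusted p = 0.329). Its 3 dimmer probe sets stood at 0.22, 0.20 and 0.03. Pdk3 read 6.71, 6.25 and 6.24 on f/f arrays against 6.08, 5.86 and 6.06 on d/d arrays, with no overlap (-0.40 ± 0.15 SE; limma adjusted p = 0.310). Across the array 7.10% of genes had d/d arrays above and 9.42% had them below all f/f arrays. Pdk2 read 3.72, 3.68 and 3.51 on f/f arrays against 3.74, 3.11 and 3.25 on d/d arrays, with d/d 1 the highest of the 6 arrays and a difference of -0.27 (limma adjusted p = 0.608). It was -0.46 without d/d 1 (adjusted p = 0.0638) and -0.14 without d/d 2 (0.974). Of the enzyme's own subunits, Pdhb read 2.71, 2.86 and 3.06 on f/f arrays against 2.67, 2.84 and 2.47 on d/d arrays (-0.22, overlapping), and Pdha1 stood at -0.01 (95% interval -0.24 to 0.22).

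The 3 measured enzymes of the pentose phosphate branch lay slightly above 0 and did not pass. Tkt, the transketolase, read 10.1, 10.1 and 10.3 on f/f arrays against 10.2, 10.5 and 10.5 on d/d arrays, with overlapping groups at 0.21 (95% interval -0.06 to 0.48). Its probe set 1451015_at gave 0.22, and its dim probe set 1436605_at gave -0.06. Pgd, the phosphogluconate dehydrogenase, and Taldo1, the transaldolase, both stood at 0.04.

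The 3 measured glycogen genes lay below 0 and did not pass. Pygm, the muscle-type glycogen phosphorylase, read 4.43, 4.39 and 4.96 on f/f arrays against 4.37, 3.89 and 4.10 on d/d arrays. The d/d values were the lower ones, d/d 1 only narrowly, at a log2 difference of -0.47 ± 0.18 (SE; limma adjusted p = 0.352), or -0.60 without d/d 1 (0.112). Beside it, the 8 measured skeletal muscle markers had a median difference of -0.08, and 4 were dim. In limma 0 of these markers passed and 1 had an unadjusted p under 0.05, beside 12.2% of all genes. Their summed intensity ran from 334 to 636 in f/f and from 259 to 368 in d/d. Most of that sum was Acta1, a skeletal muscle actin gene (means 8.69 and 8.03, overlapping, -0.66). The other markers lay between -0.23 and 0.05. The part of these markers in the Pygm values was not tested. Pygb, the brain-type phosphorylase, read 8.48, 8.33 and 8.44 on f/f arrays against 8.37, 8.14 and 8.26 on d/d arrays. Its groups overlapped through f/f 2 and d/d 1, at -0.16 (95% interval -0.38 to 0.06). Gys1, the glycogen synthase of most tissues, was dim, at -0.12.

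Markers of the main cells of a uterus were bright, as 0 of 7 smooth muscle and 0 of 8 stroma markers were dim. Whole uteri hold several cell types, and fewer cells of a type cannot be told apart from less RNA per cell in such samples. Fat is a tissue where Pck1 is strongly transcribed. Fat cell markers were lower in d/d uteri, as were the 3 genes that fell, but did not follow each of them from array to array. Among f/f arrays the fat list was highest on f/f 3, where Slc2a3 was lowest. Pck1 and Hk2 had the order of the fat list there, highest on f/f 3 and lowest on f/f 2. All 7 measured fat markers of the 10 listed were lower in d/d with no overlap, beside 9.42% of all genes. In limma 0 of these markers passed and 6 had an unadjusted p under 0.05, beside 12.2% of all genes. The median difference of the fat markers was -1.16. Their summed intensity ran from 604 to 942 in f/f and from 204 to 495 in d/d, and Lep, the leptin gene, was dim. The mean of the list was 5.03, 4.87 and 5.49 on f/f arrays against 4.65, 3.78 and 4.02 on d/d arrays, so d/d 1 was the highest d/d array for fat markers, as it was for Pck1 and Slc2a3 but not for Hk2. That order is not particular to fat. On d/d arrays the list means were 6.52, 6.03 and 6.23 for endothelium, 9.61, 9.29 and 9.36 for stroma, and 8.90, 8.41 and 8.65 for smooth muscle. For simple epithelium and skeletal muscle markers d/d 1 was not the highest d/d array. Adipoq, the adiponectin gene, read 7.50, 7.61 and 8.11 on f/f arrays against 7.05, 5.49 and 5.90 on d/d arrays (-1.59 ± 0.37 SE; limma adjusted p = 0.112). The part of fat tissue in the Pck1, Slc2a3 and Hk2 values was not tested.

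Markers of other cell types moved as well. The counts given for them stand beside 12.2% of all genes with an unadjusted p under 0.05 and 16.5% with groups that did not overlap. Of 5 measured genes of the glandular epithelium, Cxcl15 and Foxa2 fell (-3.71 and -1.41; limma adjusted p = 0.00538 and 0.0116), and the list's summed intensity ran from 69.3 to 119.9 in f/f and from 32.9 to 35.3 in d/d. The other 3 did not pass, with Prss28 dim at -0.27, which is the list's median, Ttr overlapping at -0.14 and Prss29 at 0.08. All 6 endothelial markers were lower (median -0.65; 0 passed in limma and 5 had an unadjusted p under 0.05; summed intensity 769 to 819 in f/f and 453 to 623 in d/d). All 8 stroma markers were lower, with Thy1, a surface protein of fibroblasts, past the threshold (-1.06; limma adjusted p = 0.0155), and all 7 smooth muscle markers were lower with 0 past it and 1 with an unadjusted p under 0.05 (medians -0.34 and -0.21). Of 7 simple epithelium markers, 6 lay above 0 and 4 had an unadjusted p under 0.05, and the median was 0.61. Cdh1, the epithelial cadherin, was the 1 that rose (1.00, limma adjusted p = 0.0314). Epcam (0.14), Krt7 (0.21) and Cldn3 (-0.18) had overlapping groups. The 9 leukocyte markers were mixed (median -0.20; 0 passed in limma and 4 had an unadjusted p under 0.05). Without overlap, Cd68 was higher in d/d (0.46), while S100a8 (-0.50) and S100a9 (-0.34), both dim, and Cd3d (-0.36) were lower. Summed intensities were 430 to 435 in f/f and 391 to 427 in d/d for this list, and 69.3 to 84.9 and 72.8 to 86.3 for the 3 platelet markers. Of 3 erythroid markers Hba-a1 and Slc4a1 were dim (median -0.17; summed intensity 13.8 to 25.7 in f/f and 13.6 to 15.2 in d/d). What any of these lists contributes to the glucose genes was not tested.

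**Figure D4:**
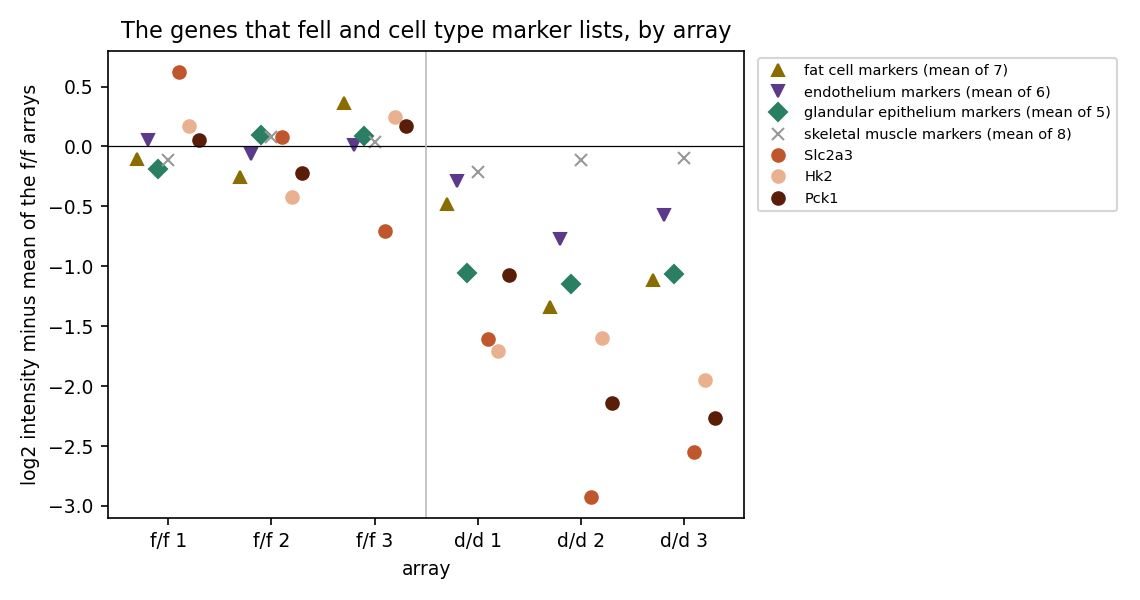
Log2 intensity minus the mean of the f/f arrays (y axis) by array (x axis) for Slc2a3, Hk2 and Pck1 (circles) and for the mean of 4 marker lists (other symbols). The means of the fat, endothelium and glandular epithelium markers are lower in all d/d arrays, the last mostly through Cxcl15 (-3.71) and Foxa2 (-1.41). Skeletal muscle markers stay close to 0, and d/d 1 is the d/d array closest to f/f for Slc2a3, Pck1 and the fat and endothelium markers.

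Further genes of glucose handling were taken from lists of other enzymes and carriers, of regulators and of hypoxia-responsive genes. Of 83 measured genes in these lists 0 passed in limma over all genes, and 13 had an unadjusted p under 0.05, beside 12.2% of all genes. The replicate block called 3 of the 83 (3.61%, beside 2.72% of all genes), array weights 3 (3.61% beside 2.27%) and the fit without d/d 1 called 6 (7.23% beside 4.88%), so these shares lie near those of all genes. Among the 39 other enzymes and carriers (median -0.03), the smallest p belonged to Slc2a13, a proton-coupled inositol carrier of the GLUT family, which read 5.69, 5.35 and 5.45 on f/f arrays against 4.94, 4.28 and 4.74 on d/d arrays. Its groups did not overlap (-0.84 ± 0.18 SE; limma adjusted p = 0.0861), and it passed without d/d 1 (-0.99; adjusted p = 0.0156). Bpgm, the bisphosphoglycerate mutase, stood at -0.53 (limma adjusted p = 0.0985) and Galm, the galactose mutarotase, at 0.37 (0.116), both with groups that did not overlap.

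Of the 29 measured regulators (median -0.07), those with the smallest p were Ppp1r3c, Ppp1r3b and Ppargc1a. Ppp1r3b, a subunit that directs protein phosphatase to glycogen, read 3.26, 3.25 and 3.68 on f/f arrays against 4.19, 6.05 and 5.28 on d/d arrays. All d/d arrays were higher, d/d 1 least so, at a log2 difference of 1.78 ± 0.41 (SE; limma adjusted p = 0.106). Without d/d 1 the difference was 2.27 with adjusted p = 0.00255. Ppargc1a, a coactivator of mitochondrial and gluconeogenic genes, read 5.01, 4.96 and 5.20 on f/f arrays against 5.49, 6.49 and 6.02 on d/d arrays (0.94 ± 0.23 SE; limma adjusted p = 0.121), and passed without d/d 1 (1.20; adjusted p = 0.00568). Ppp1r3c, another glycogen-targeting subunit, lay lower in all d/d arrays (-0.43 ± 0.09 SE; limma adjusted p = 0.0765), so the 2 targeting subunits lay in opposite directions, neither past the threshold. Also called without d/d 1, and named for that reason after their values were seen, were Epas1 (-0.85), Irs2 (-0.92) and Ddit4 (-0.45).

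Of the 15 measured hypoxia-responsive genes 0 passed in limma and the median was -0.07. An unadjusted p under 0.05 was found for 1, beside 12.2% of all genes, and groups that did not overlap for 1, beside 16.5%. Those with the smallest p were Car12, a carbonic anhydrase (-0.68; limma adjusted p = 0.357), Ero1a, an oxidoreductase of the endoplasmic reticulum (-0.21; 0.501), and Stc2, a stanniocalcin (0.33; 0.526). Slc2a3 and Hk2 are themselves among the genes known to respond to hypoxia, as are other members, none of which passed. Among these, Slc2a1, Pgk1, Ldha and Pdk1 had differences between 0.07 and 0.40. Pfkfb4, Slc16a3 and Pfkfb3 stood at -0.22, -0.04 and 0.02. A part of hypoxia in these values was not tested.

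**Figure D5:**
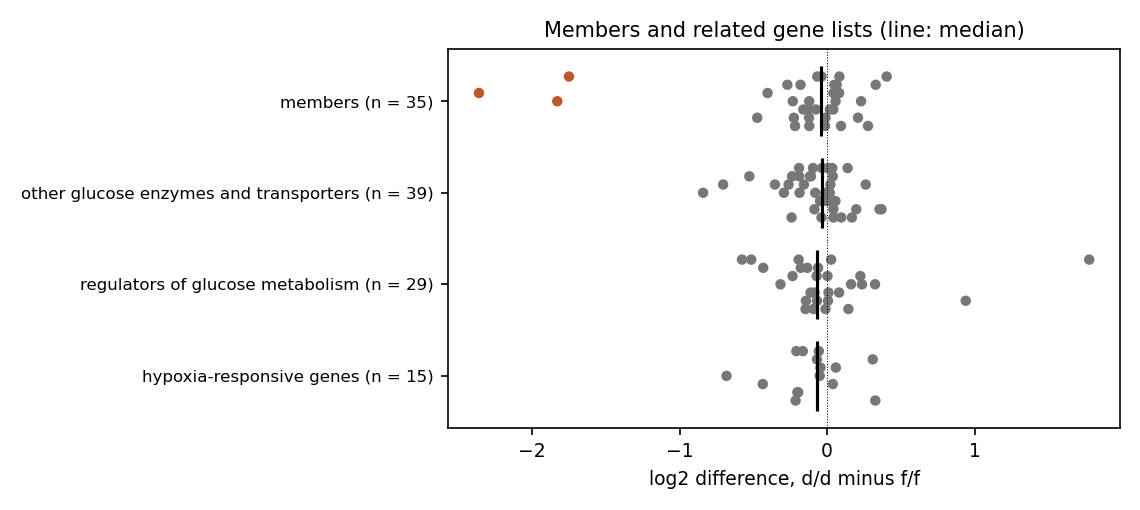
Log2 difference, d/d minus f/f (x axis), of each measured gene in the 35 glucose genes and in 3 related lists (y axis), with the list median as a line; points are spread vertically for legibility only. The 3 coloured points, Slc2a3, Hk2 and Pck1, are the only ones past the threshold, and the point at 1.78 is Ppp1r3b.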

How the data were processed

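Total RNA of 6 whole uterus samples, 500 ng each per the labels, was hybridised to Affymetrix arrays. The deposited values are intensities on a linear scale, 1 per probe set and array; RMA is named in the submitters' processing notes, and its version and any genome build are not given in the sources used here. RMA compresses differences near background. Precision is limited by having 6 arrays, whose medians lay between 6.34 and 6.59. The design assumed log2 values, so log2 was taken with nothing added.

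Of 41420 probe sets, 31562 had 1 gene symbol, 830 several and 9028 none; no filter on level was used. The gene-wise fit was limma 3.58.1 in R 4.3.3 (lmFit, eBayes, 2-sided, 4 residual degrees of freedom). On simulated data of 16813 genes, 22 of 50 genes were recovered at a fold of 1.5 and 42 of 50 at a fold of 2. At folds of 4 and of 8, 49 of 50 were recovered each, with 5 false calls among 167 over all folds. These shares hold for the simulated spread only. In the data Ppp1r3b, 3.43-fold higher in d/d, did not pass (limma adjusted p = 0.106).

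The genes and lists were chosen with earlier results of these data known. Named are all measured members, with every array's value for those that passed and the 12 next by p, and list genes that passed or the 3 of smallest p. Promoters are RefSeq's, and motifs were chosen after the data were seen. Same-numbered arrays correlated in their deviations at 0.461, 0.0228 and 0.178, so the numbers were not taken to pair them. Even so, f/f 1 and d/d 1 were each other's closest array over all probe sets (correlation 0.995), while the other arrays matched best within their genotype. Something shared by the arrays numbered 1 is therefore possible, and the labels do not name it. Alternatives were other normalisations, weights, filters, probe set choices, thresholds, added constants and arrays left out.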

Additional observations from a re-analysis of the deposited data

How the results depend on the processing

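With 3 arrays a genotype, the calls rest on few samples. With 1 array left out, genes past the threshold numbered 26 to 821, glucose members 0 to 3, list genes 0 to 6 and probe sets of Slc2a3, Hk2 and Pck1, 2 of 8 as reported, 0 to 4. Adding 10 to each intensity left 47 genes, 0 members and 0 of those probe sets. The replicate block gave 457 genes, 3 list genes (Slc2a13, Ppp1r3b and Car12) and 4 probe sets, and changed no member's call; array weights gave 381, 3 and 4, an adjusted p under 0.10 gave 403, 3 and 4, and leaving out both arrays numbered 1 gave 540, 4 and 4. Repeated quantile normalisation, median centring and leaving out dim probe sets each gave 4 probe sets. The looser threshold explains its own counts; for the others the cause was not tested.

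No gene or probe set changed sign with either side past the threshold. Signs turned near 0 with the mean of all probe sets for Hk1 (0.023), Pfkl (0.011), Pfkp (0.067) and Pfkfb2 (-0.047), with array weights for Pfkfb3 (-0.0025) and Pdha1 (0.028), and without both arrays numbered 1 for Pfkp (0.089), Slc16a3 (0.023), Pdha1 (0.055), Slc2a3 probe set 1427770_a_at (-0.012) and the ratio of Ldhb to Ldha (-0.094). With 1 array left out the ranges were -0.085 to 0.054 for Hk1, -0.21 to 0.054 for Pfkl, -0.16 to 0.049 for Pfkp, -0.37 to 0.037 for Aldoc, -0.0045 to 0.12 for Pfkfb2, -0.036 to 0.058 for Pfkfb3, -0.075 to 0.21 for Pgam1, -0.046 to 0.27 for Ldha, -0.11 to 0.013 for Slc16a3, -0.076 to 0.073 for Pdha1, -0.20 to 0.018 for G6pc3, -0.026 to 0.12 for Pgd, -0.041 to 0.17 for Taldo1, -0.25 to 0.049 for Gys1, -0.049 to 0.11 for the Slc2a3 probe set 1427770_a_at, -0.13 to 0.20 for the ratio of Pfkp to Pfkl and -0.17 to 0.12 for that of Ldhb to Ldha.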
